A study of Capra hircus with 6 samples.

Results

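Red blood cells are built around hemoglobin, and the genes followed here act at different steps of that work. ALAS2, the erythroid form of 5-aminolevulinate synthase, carries out the first and rate-limiting step of heme synthesis in red cell precursors. HEMGN (hemogen) is a nuclear protein of blood-forming cells, EPB42 (band 4.2) ties the anion exchanger band 3 to the membrane skeleton, and AHSP is a chaperone that holds free alpha globin until it joins a beta chain. All 4 are known from red cell precursors, are carried in blood by young red cells that still hold RNA, and are not markers of keratinocytes, fibroblasts or melanocytes.

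The 4 genes are represented by 5 of the 27947 mRNA transcripts in the table, chosen by their RefSeq accessions. ALAS2 has 2 of them (XM_005701302.1 and XM_005701303.1), and HEMGN (XM_005683904.1), EPB42 (XM_005685549.1) and AHSP (XM_005697739.1) have 1 each. Their symbols were read from the RefSeq genes of goat assembly ARS1.2, which named 9497 mRNA transcripts (34.0%), by matching accessions without the version number.

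Skin was collected at day 100 of gestation from fetuses of the Youzhou dark-skin goat, which has dark skin under a mostly white coat (dark skin, replicates 1, 2 and 3), and of the Yudong white goat, which has white skin and coat (white skin, replicates 4, 5 and 6). The fetuses came from 3 pregnant ewes of each breed and received no treatment. Dorsal and ventral skin was taken from each fetus, and the labels do not say which site a library holds. Levels are given as FPKM (fragments scaled to the transcript's length and the library's size), which is a level per length, so that transcripts can be compared with each other.

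The skin libraries held high levels of KRT14, a keratin of basal keratinocytes (306 ± 138 FPKM in dark and 346 ± 41.3 in white skin, SD, n = 3), and of DCN, a proteoglycan of the dermis (1122 ± 37.7 and 1120 ± 66.4 FPKM, SD, n = 3). COL1A2 and COL3A1, collagens that are abundant in dermis, were listed at 0 in all 6 libraries, so a listed 0 in this table does not show that a transcript was absent. The table holds no counts, but its lowest values step by the worth of 1 fragment. Set to 1 in dark skin replicate 3, where it was lowest, that worth ranged up to 1.20 in white skin replicate 6. It reflects the depth of a library together with its scaling, so depth alone was not measured.

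In dark skin replicates 1, 2 and 3 the level of XM_005701302.1, the main ALAS2 transcript, was 1.56, 3.63 and 1.48 FPKM. In white skin replicates 4, 5 and 6 it had 6.29, 6.92 and 13.5. All white skin libraries lay above all dark skin libraries, with replicate 6 the highest and replicate 2 the highest of the dark group. The mean was 2.22 ± 1.22 in dark and 8.90 ± 3.99 in white skin (SD, n = 3), and the ratio of the white to the dark mean was 4.01. On the log2(FPKM + 0.1) scale the difference, dark minus white, was -1.99 (standard error 0.43), with an unadjusted p of 0.00276 and an adjusted p of 0.423 from limma over 23090 transcripts. This ranked 146th by p, and the difference did not pass the threshold of an adjusted p under 0.05. With 1 library left out the limma adjusted p ran from 0.311 to 0.801. Since the skin was sequenced in bulk, fewer erythroid cells and less RNA per cell cannot be told apart, here or for any gene that follows.

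XM_005701303.1, the minor ALAS2 transcript, was listed at 5.64e-05, 0.192 and 0.246 FPKM in dark skin replicates 1, 2 and 3. It had 0.263, 0.368 and 0.986 FPKM in white skin replicates 4, 5 and 6. The groups did not overlap, but dark skin replicate 3 and white skin replicate 4 lay close together. The log2 difference was -1.39 (standard error 0.66, adjusted p = 0.620 from limma). Its size followed the pseudocount, from -2.54 with 0.01 to -0.40 with 1, and it was -0.84 without dark skin replicate 1.

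HEMGN lay at 0.112, 0.102 and 0.0625 FPKM in dark skin replicates 1, 2 and 3. In white skin replicates 4, 5 and 6 it had 0.445, 0.210 and 0.642. The groups did not overlap, and white skin replicate 6 was the highest, as it was for ALAS2. The means were 0.0920 ± 0.0260 and 0.433 ± 0.216 (SD, n = 3), a ratio of white to dark of 4.70. The log2 difference was -1.39 (standard error 0.45, unadjusted p = 0.0196, adjusted p = 0.549 from limma), and with pseudocounts of 0.01 and 1 it was -2.02 and -0.38. In dark skin HEMGN lay under the minimum mean FPKM of 0.1, so it entered the test only through white skin.

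HEMGN may have rested on few fragments. After division by the relative worth of 1 fragment, its values stood to each other as 3, 3 and 2 in dark skin replicates 1, 2 and 3, and as 13, 6 and 17 in white skin replicates 4, 5 and 6. This is the smallest set of whole numbers that lay within 0.15 of the values, and multiples of it cannot be told apart from it. Read as fragments, this smallest set gives 8 in dark and 36 in white skin, and the true numbers are not known. No such set was found for XM_005701302.1 and EPB42 with up to 20 fragments in the lowest library. For XM_005701303.1 and AHSP the search could not give a set, since it required a value above 0.001 in every library.

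The level of EPB42 was 0.311, 0.238 and 0.272 FPKM in dark skin replicates 1, 2 and 3. It had 0.315, 0.292 and 0.348 in white skin replicates 4, 5 and 6. The groups overlapped, with dark skin replicate 1 above white skin replicate 5. The highest of the 6 values was only 1.46 times the lowest, compared with 9.28 times for the summed ALAS2 transcripts and 10.3 times for HEMGN. The log2 difference was -0.17 (standard error 0.33, adjusted p = 0.910 from limma), and its sign turned with quantile normalization, to 0.023.

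AHSP was listed between 0.000289 and 0.000320 FPKM in 5 of 6 libraries, far under the lowest value of HEMGN. In white skin replicate 5 alone it was listed at 0.412 FPKM. This library was not the one with the most ALAS2 or HEMGN, which was white skin replicate 6. With a mean of 0.0689 FPKM over the 6 libraries AHSP did not reach the minimum of 0.1, and without that filter its log2 difference was -0.78 (adjusted p = 0.754 from limma).

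**Figure D1:**
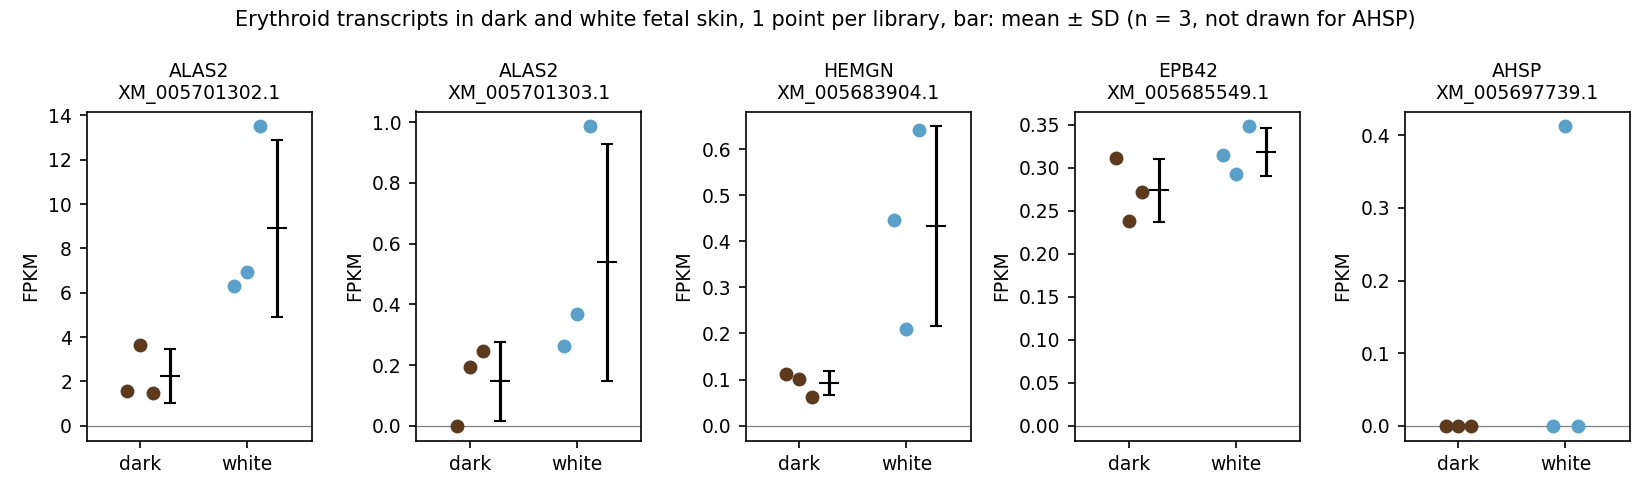
FPKM (vertical axis, a separate scale in each panel) of the 5 transcripts in dark (brown) and white (blue) skin, 1 point for each of the 6 libraries, with the mean ± SD of 3 libraries beside them except for AHSP. Both ALAS2 transcripts and HEMGN separate the breeds, EPB42 overlaps between the breeds within a full range of 0.238 to 0.348 FPKM, and AHSP stands off 0 in white skin replicate 5 alone.

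In total 4 of the 5 transcripts could be tested and 0 had an adjusted p under 0.05, where 2 of all 23090 tested transcripts (0.00866%) did. The unadjusted p was under 0.05 for XM_005701302.1 and for HEMGN, and for 8.28% of all tested transcripts, but since HEMGN entered the test only through the breed where it is high, nothing is read from this count. Values without overlap and lower in dark skin were found for 3 of the 5 transcripts and for 7.06% of all tested transcripts, but nothing is read from this count either, since HEMGN is one of the 3 and AHSP was not tested. The other 2 are transcripts of 1 gene, ALAS2, between which reads were divided by estimation. Values without overlap and higher in dark skin were found for 0 of the 5 and for 7.65% of all tested transcripts, and values without overlap in either direction for 14.7% of all. The genes were chosen with earlier results of these libraries known. The median log2 difference over all tested transcripts was -0.0052.

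XM_005701302.1 was the highest of the 5 transcripts in 6 of 6 libraries. At the low end the order varied, since AHSP was under 0.001 FPKM in 5 of 6 libraries but second to XM_005701302.1 in white skin replicate 5, and XM_005701303.1 lay below AHSP in dark skin replicate 1. XM_005701302.1 lay between the 44.8th and the 79.8th percentile of all mRNA transcripts, and EPB42 between the 28.8th and the 30.7th. EPB42 was above HEMGN in 3 of 3 dark skin libraries, where their ranges did not overlap, and in 1 of 3 white skin libraries, where their ranges overlapped. XM_005701303.1 was above HEMGN in 4 of 6 libraries and above EPB42 in 2 of 6. In white skin the ranges of HEMGN, EPB42 and XM_005701303.1 overlapped each other, so their order there was within their spread.

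Isoform use of ALAS2 was read as the share of each transcript in their summed FPKM. XM_005701303.1 held 0.00361%, 5.03% and 14.3% in dark skin replicates 1, 2 and 3. It held 4.01%, 5.05% and 6.81% in white skin replicates 4, 5 and 6. The white skin libraries lay within the range of the dark skin libraries, whose own spread was wide at summed ALAS2 levels of 1.56, 3.82 and 1.72 FPKM. XM_005701302.1 held 93.6% ± 7.25 in dark and 94.7% ± 1.41 in white skin (SD, n = 3), a difference of -1.16 percentage points. The exact permutation test over 20 assignments gave a 2-sided p of 0.9, where 0.1 is the smallest p that 3 against 3 libraries allow. Without dark skin replicate 3 the difference turned to 2.77 percentage points. XM_005701302.1 was the dominant transcript in all 6 libraries, and a difference in isoform use was not detectable with these libraries. The summed FPKM of both transcripts was 2.37 ± 1.26 in dark and 9.44 ± 4.38 in white skin (SD, n = 3, exact permutation p = 0.1, 2-sided).

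**Figure D2:**
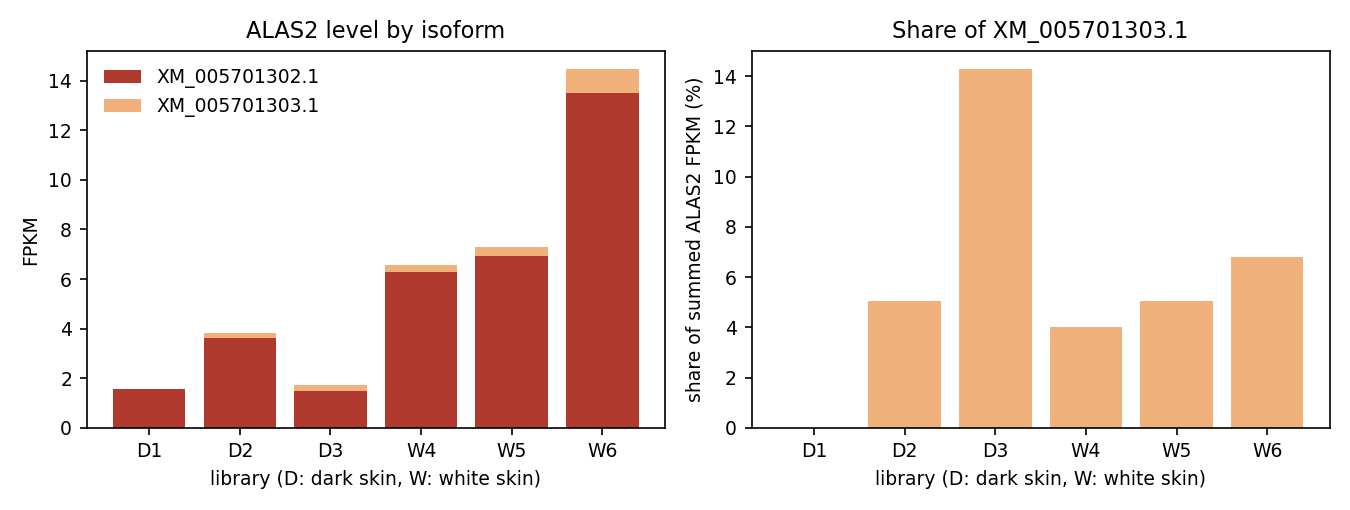
Left, FPKM of ALAS2 in each of the 6 libraries, stacked by transcript. Right, share of XM_005701303.1 in the summed ALAS2 FPKM (%), which lies between 4.01% and 6.81% in white skin (W4 to W6) and between 0.00361% and 14.3% in dark skin (D1 to D3).

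Agreement between the 4 genes was measured over the 6 libraries on log2(FPKM + 0.1), with ALAS2 as the sum of its transcripts. For ALAS2 and HEMGN Pearson's r was 0.884, with a 2-sided exact permutation p of 0.0292 over 720 orders and of 0.175 after Benjamini-Hochberg adjustment over 6 pairs. Spearman's rho was 0.771, with an exact permutation p of 0.103 and an adjusted p of 0.308. Both genes separated the breeds, so this relation cannot be told apart from the breed difference. After each breed was centred on its own mean, r was 0.494, and when the 2 libraries most extreme in ALAS2 were dropped it was 0.823. For HEMGN and EPB42 r was 0.772 (exact permutation p of 0.0722, or 0.217 when adjusted) and rho was 0.886 (exact permutation p of 0.0333, or 0.200 when adjusted). Centring on breed means gave an r of 0.565, and dropping the 2 libraries most extreme in HEMGN one of 0.355.

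ALAS2 and EPB42 were less alike, with an r of 0.480 (exact permutation p of 0.347, or 0.694 when adjusted) and a rho of 0.486 (exact permutation p of 0.356, or 0.533 when adjusted). Dropping the 2 most extreme libraries gave an r of 0.506, centring on breed means one of -0.238, and dropping white skin replicate 6 alone one of 0.0892. The 3 pairs with AHSP had r between -0.0284 and 0.283 and rho between -0.486 and 0.0286. When the 2 libraries most extreme in the other gene were dropped, r was 0.557 with ALAS2, 0.904 with HEMGN and -0.167 with EPB42. Each r rests on white skin replicate 5, the one library where AHSP was not close to 0. Each rho also ranks the AHSP values between 0.000289 and 0.000320 FPKM of the other libraries, so nothing is read from it. Of the 6 pairs 0 had an adjusted p under 0.05 in the exact permutation test by r or by rho, and the unadjusted p was under 0.05 for 1 pair by each measure.

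The ratio between genes was also taken within each library. The summed ALAS2 FPKM was between 14.0 and 37.6 times that of HEMGN, and the mean ratio was 26.4 ± 11.9 in dark and 24.0 ± 10.1 in white skin (SD, n = 3). The summed ALAS2 FPKM was 5.02, 16.1 and 6.34 times that of EPB42 in dark skin replicates 1, 2 and 3, and 20.8, 24.9 and 41.6 times in white skin replicates 4, 5 and 6. The ranges of the ratio of ALAS2 to HEMGN overlapped between the breeds, while the ratio of ALAS2 to EPB42 was higher in every white skin library.

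The transcripts with a pattern most like the mean of the 4 genes were sought among 16775 other mRNA transcripts that averaged 1 FPKM or more, of which 5802 have a symbol. A Pearson's r of at least 0.95 over the 6 libraries was found for 27 (0.161%). Among those with a symbol, HBBC (XM_005689813.1), the beta-C globin that goats make as juveniles and in anaemia, came first with r = 0.973. MDM4, a regulator of p53, followed with 0.972, the potassium channel KCNJ10 with 0.969, DFFA, the inhibitor of an apoptotic nuclease, with 0.964, and the inositol phosphate kinase PPIP5K2 with 0.958. The other 5 of the first 10 were LOC102175876 (0.955), the RNA-binding protein RC3H1 (0.951), the leukocyte receptor CD84 (0.949), the amino acid transporter SLC38A1 (0.949) and SCG5 (0.944). The white to dark ratio of the means was 4.23 for HBBC and 5.84 for LOC102175876, but between 1.12 and 1.94 for the other 8. With AHSP left out of the mean, 3 of the 10 remained, which were SLC38A1, HBBC and KCNJ10. SLC38A1 then came first with r = 0.991, followed by LOC102176710 (0.982) and HBBC (0.981). These correlations rest on 6 libraries and were picked from many, so they are a description and carry no p.

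HBBC lay at 1.60, 2.23 and 1.20 FPKM in dark skin replicates 1, 2 and 3. It had 5.91, 5.90 and 9.42 in white skin replicates 4, 5 and 6, above every dark skin library. The means were 1.67 ± 0.520 and 7.08 ± 2.03 (SD, n = 3), and the log2 difference was -2.02 (standard error 0.29, adjusted p = 0.186 from limma). HBBC was not among the 15 symbols of the list of hemoglobin subunits and their chaperone, of which AHSP alone was matched to a transcript.

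The globin genes of mammals lie in 2 clusters, so the neighbours of HBBC and of HBM, an alpha-type globin, were read from the gene order of ARS1.2. This was done after the values had been seen. Among the 10 genes on either side of HBBC and HBBC itself, 8 transcripts were measured, and 3 of them had a mean of at least 1 FPKM. LOC102176710, 7 genes from HBBC, was by far the most abundant with 158, 295 and 163 FPKM in dark skin replicates 1, 2 and 3, and 512, 557 and 1266 FPKM in white skin replicates 4, 5 and 6. LOC102175876, 4 genes from HBBC, had 2.50, 2.47 and 0.940 FPKM in dark skin and 5.42, 10.4 and 18.6 FPKM in white skin. For neither gene did the breeds overlap, and the log2 differences were -1.85 (standard error 0.40, adjusted p = 0.423 from limma) and -2.43 (standard error 0.54, adjusted p = 0.423 from limma). The table gives these genes no name beyond their number, and genes that are close copies of each other may share reads. Around HBM, 2 transcripts were measured. These were SNRNP25 and LOC102186172, and both overlapped between the breeds.

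ALAS2 and LOC102176710 kept nearly the same proportion in every library. The FPKM of LOC102176710 was 101, 77.2 and 94.8 times the summed ALAS2 FPKM in dark skin replicates 1, 2 and 3, and 78.2, 76.4 and 87.4 times in white skin replicates 4, 5 and 6. The highest ratio was 1.33 times the lowest, although the highest summed ALAS2 FPKM was 9.28 times the lowest. Their r on the log2 scale was 0.994, the highest of the 16775 transcripts with ALAS2, and 0.974 after centring on breed means. For HBBC and ALAS2 these values were 0.971 and 0.908, and the highest of their 6 ratios was 1.75 times the lowest. Such an r was not particular to this neighbourhood. An r of at least 0.95 with ALAS2 was found for 27 transcripts (0.161%), and HBBC came 12th. Ahead of HBBC lay SLC7A6 (0.991), GCC2 (0.983) and MDM4 (0.971), with white to dark ratios of 1.22, 1.09 and 1.35. LOC102175876 kept less close to ALAS2, with an r of 0.922, or 0.657 after centring on breed means, and a highest ratio 2.93 times the lowest. Within dark skin, replicate 2 had the most ALAS2, HBBC and LOC102176710, and within white skin replicate 6 had the most of all 3.

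**Figure D3:**
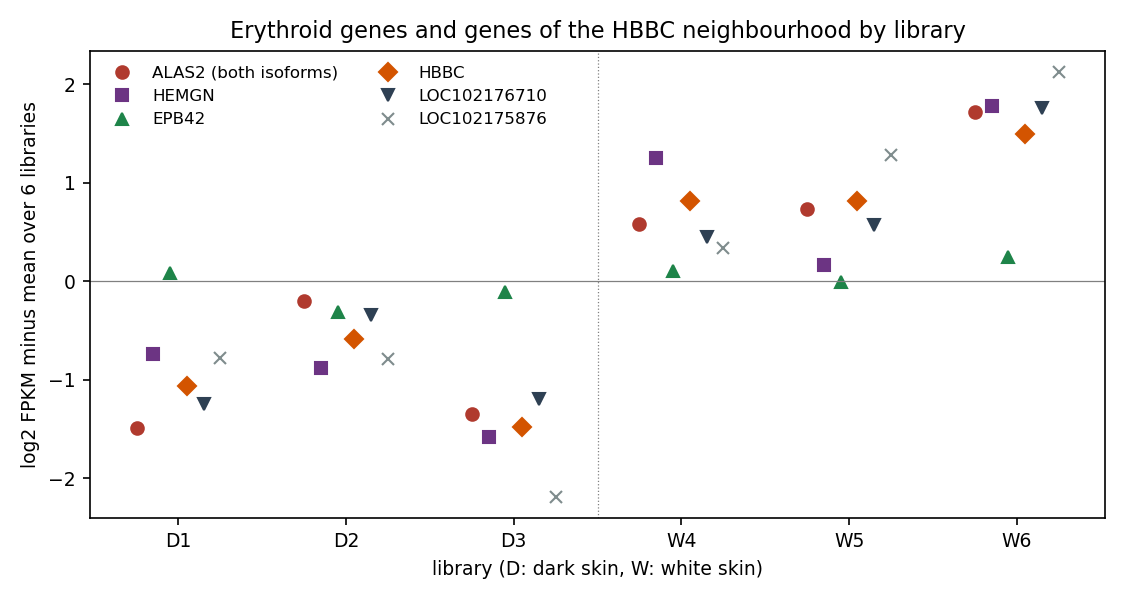
log2 FPKM of each gene minus its mean over the 6 libraries (vertical axis), with 1 symbol per gene and library, dark skin (D1 to D3) left and white skin (W4 to W6) right of the dotted line. ALAS2, HEMGN, HBBC, LOC102176710 and LOC102175876 lie higher in the 3 white skin libraries than in the 3 dark skin libraries, while EPB42 stays near 0 throughout.

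For the other measured enzymes of heme synthesis the differences were smaller in size than those of the ALAS2 transcripts, which was not tested. In the list of 9 enzymes 6 genes were measured, with 9 transcripts tested, and 0 passed in either direction. Next to the 2 ALAS2 transcripts, only ALAS1, the form of the first enzyme used by all other tissues, did not overlap between the breeds, with 20.7 ± 1.44 FPKM in dark and 23.8 ± 0.612 in white skin (SD, n = 3), where 7.06% of all tested transcripts were lower in dark skin without overlap. Its log2 difference was -0.20 (standard error 0.087, adjusted p = 0.610 from limma). ALAD, which acts next after the synthase, had 17.3 ± 1.84 FPKM in dark and 19.3 ± 2.49 in white skin (SD, n = 3). The minor UROD transcript XM_005678549.1 had a log2 difference of 0.76 and PPOX XM_005677168.1 one of 0.16, both with overlap, so the direction was not shared. The median log2 difference of the 7 transcripts other than ALAS2 was -0.095.

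Other genes of red cells were mixed, and counts of values without overlap among them stand beside 7.06% of all tested transcripts that were lower and 7.65% that were higher in dark skin. Of 18 genes of the red cell membrane 6 were measured, with 5 transcripts tested, and 0 passed. ACKR1, the Duffy antigen, which venules also carry, had 0.263 ± 0.0383 FPKM in dark and 0.432 ± 0.0372 in white skin (SD, n = 3) without overlap, and the Rh-associated glycoprotein RHAG and the Kell antigen KEL stayed under a mean of 0.1 FPKM. DMTN (dematin, an actin-bundling protein) had a log2 difference above 0, at 0.76, with overlap. The transcripts of GYPC, glycophorin C, separated the breeds in opposite directions, with XM_005676274.1 at -1.92 and XM_005676275.1 at 1.28. The median over the 4 tested transcripts other than EPB42 was 0.10. Of 12 erythroid regulators 3 were measured, with 3 transcripts tested, and 0 passed. Besides HEMGN, the transcription factor NFE2 did not overlap (0.218 ± 0.0635 and 0.431 ± 0.176 FPKM, SD, n = 3), but its highest dark value of 0.265 and lowest white value of 0.266 FPKM were nearly equal, and its log2 difference of -0.71 was -0.46 without white skin replicate 4. LDB1, which is used in many tissues, had 29.0 ± 5.99 and 25.6 ± 2.11 FPKM. Of 18 genes for iron supply, the erythropoietin receptor and other red cell functions 5 were measured, with 6 transcripts tested, and 0 passed. Both transcripts of SLC25A38, which brings glycine into mitochondria for heme synthesis, were higher in every dark skin library (2 of the 6 transcripts, against 7.65% of all tested), at 7.63 ± 0.422 and 3.94 ± 0.237 FPKM against 5.59 ± 1.26 and 2.91 ± 0.465 in white skin (SD, n = 3). BPGM, which makes 2,3-bisphosphoglycerate in red cells, overlapped at 8.42 ± 0.746 and 7.05 ± 1.70 FPKM.

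Markers of vessels and platelets were read beside these values. All 7 endothelial transcripts tested (6 of 12 genes measured) had a log2 difference below 0, with a median of -0.39, 2 of the 7 did not overlap between the breeds (7.06% of all tested transcripts were lower in dark skin without overlap), and 0 passed. Their summed FPKM ranged from 78.6 to 97.3 in dark and from 108 to 147 in white skin. PECAM1, an adhesion molecule of endothelium, had 21.9 ± 4.07 and 34.7 ± 6.56 FPKM (SD, n = 3, ratio of white to dark 1.58, adjusted p = 0.492 from limma). The 6 measured genes of the platelet list of 14 summed to between 0.429 and 0.719 FPKM in dark and between 0.912 and 1.24 in white skin, and TUBB1, the tubulin of platelets, had 0.255 ± 0.0752 and 0.641 ± 0.109 FPKM (SD, n = 3). Of the 3 platelet transcripts tested 0 passed, and the difference of TREML1 was 0.22, above 0. The white to dark ratios of PECAM1 and TUBB1 (2.51) were smaller than that of ALAS2, a difference that was not tested. The 14 measured of 20 leukocyte genes summed to between 52.2 and 69.3 FPKM in dark and between 56.7 and 75.25 in white skin, with overlap, and 0 of 15 transcripts passed. S100A8 (means of 31.2 FPKM in dark and 26.0 in white skin) and LAPTM5 (17.3 and 20.7) were the largest parts of this sum. Of the 15 transcripts 9 had a log2 difference below 0, with a median of -0.26. CD3D and CD53, 2 of the 15, were lower in dark skin without overlap, where 7.06% of all tested transcripts were. The part of vessel content in the result for ALAS2 was not tested.

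Markers of the other skin layers also held transcripts that separated the breeds. With 0 calls in each list, the median log2 difference was 0.27 over 5 keratinocyte transcripts, -0.15 over 9 fibroblast transcripts and 0.94 over 5 melanocyte transcripts. Among the fibroblast transcripts 4, all of POSTN (periostin, a matrix protein), were lower in every dark skin library (7.06% of all tested transcripts were), with XM_005687496.1 at -1.42, and the summed fibroblast FPKM ranged from 2993 to 3568 in dark and from 3683 to 3917 in white skin. All 5 melanocyte transcripts had a difference above 0, and 2 of them did not overlap, where 7.65% of all tested transcripts were higher in dark skin without overlap. The part of these cell types in the result for ALAS2 was not tested. Of 18 skeletal muscle genes 1 was measured, and it ordered the libraries in another way. CKM, the creatine kinase of muscle, had 2.71, 3.02 and 20.3 FPKM in dark skin replicates 1, 2 and 3 and 226, 65.8 and 2.56 FPKM in white skin replicates 4, 5 and 6. It was lowest in white skin replicate 6, the library with the highest ALAS2.

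**Figure D4:**
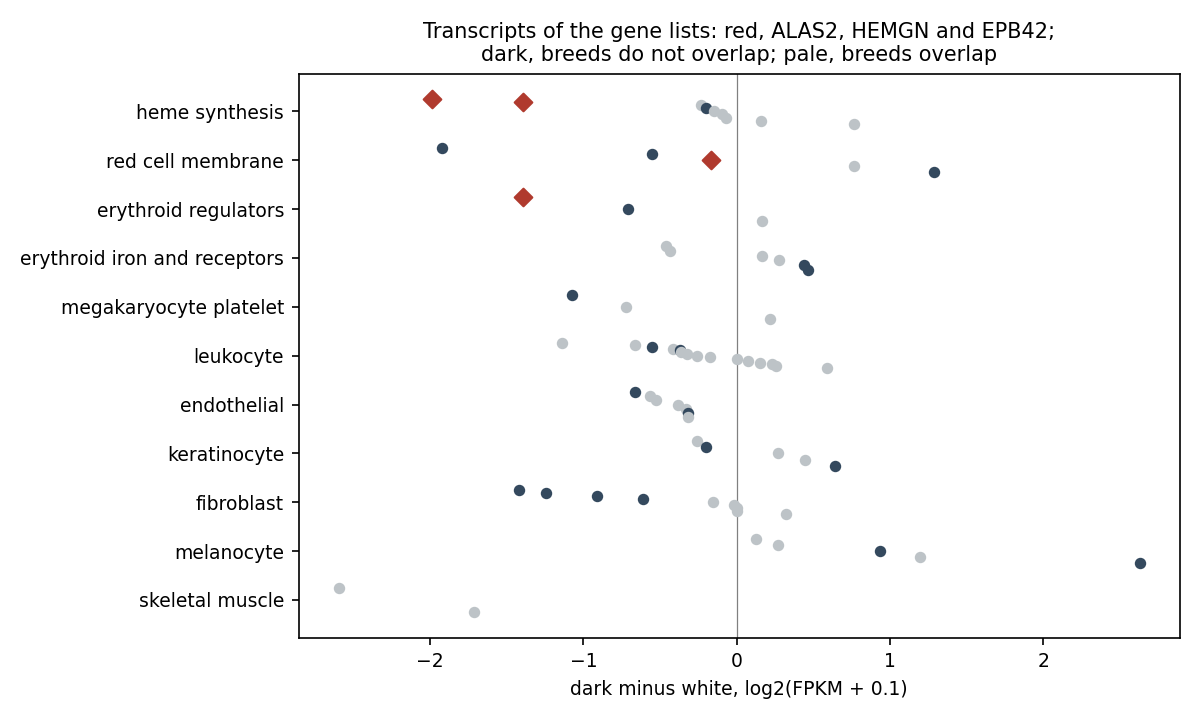
Difference between dark and white skin on log2(FPKM + 0.1) (horizontal axis) for each tested transcript of the gene lists (rows), with the ALAS2, HEMGN and EPB42 transcripts as red diamonds. The ALAS2 transcripts at -1.99 and -1.39 lie below the other heme synthesis transcripts, and all 7 endothelial transcripts lie below 0.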

How the data were processed

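Strand-specific libraries of rRNA-depleted RNA from 6 fetal skins were sequenced as paired ends. The authors aligned clean reads with TopHat 2.0.9 and Bowtie2 2.0.6 to the goat genome, calculated FPKM per transcript and library with Cuffdiff (their processing notes list versions 2.1.1 and 2.2.2), and deposited these FPKM values, with no counts. The library normalization inside Cuffdiff is not given in the sources used here, and Cuffdiff divides reads between isoforms by estimation. The lncRNA table was not used here.

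Groups came from the sample labels. The breeds were compared by limma (version 3.58.1, R 4.3.3, functions lmFit and eBayes, trend on) for the 23090 mRNA transcripts that averaged 0.1 FPKM or more, after taking log2(FPKM + 0.1). The p-values are 2-sided, were adjusted by Benjamini and Hochberg's method and were called under 0.05. The script was tested on simulated data. On this scale the changes of low transcripts come out too small. Correlations and exact permutation tests were calculated in Python 3.11.15 with scipy 1.17.1. The relative worth of 1 fragment was the median near the most frequent ratio between 2 libraries over transcripts between 0.02 and 0.5 FPKM. Named were the 5 transcripts, members of 12 gene lists and the 10 most alike transcripts. The neighbours of the globins, which the rule does not cover, were added after the values had been seen. The members and lists were chosen with earlier results of these data known. The study's quantitative PCR was not used here.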

Additional observations from a re-analysis of the deposited data

How the results depend on the processing

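No paired analysis was possible because the replicate numbers of the breeds (1 to 3 and 4 to 6) are not shared. The differences of the ALAS2 and HEMGN transcripts kept their sign and stayed above an adjusted p of 0.05 in all alternatives run (pseudocounts of 0.01 and 1, both filters, median centring, quantile normalization, no trend, transcripts summed by symbol and each library left out). Not every alternative could give a value for each transcript, and for AHSP only the fit without a filter did. The difference of EPB42 turned to 0.023 with quantile normalization, and that of the GYPC transcript XM_005676275.1 to -0.45 when both GYPC transcripts were summed. The number of transcripts called between the breeds was 2, and 11 without a filter, 1 with a mean FPKM of at least 1, 28 without trend, and between 1 and 7 with 1 library left out (7 without white skin replicate 5, 4 without dark skin replicate 3, and 1 without dark skin replicate 2 or white skin replicate 6). The difference in ALAS2 isoform share ran from -4.38 to 2.77 percentage points with 1 library left out, the latter without dark skin replicate 3. The correlation of ALAS2 and EPB42 was -0.238 and that of ALAS2 and AHSP -0.261 with breed means removed. That of HEMGN and AHSP was 0.0029, and -0.110 on linear FPKM, -0.0813 on log2(FPKM + 1), -0.0111 with median centring and -0.893 with breed means removed. With 1 library left out, r ran from -0.277 to 0.580 for ALAS2 and AHSP, from -0.535 to 0.210 for HEMGN and AHSP and from -0.897 to 0.131 for EPB42 and AHSP. The lowest r of each of these pairs was the one without white skin replicate 5. It rests only on AHSP values under 0.001 FPKM, so nothing is read from it. The low FPKM of HEMGN, EPB42 and AHSP limits what could be detected.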

Other observations

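GYPC, a sialoglycoprotein of the red cell membrane that other tissues also express, had 2 transcripts with opposite differences between the breeds. The level of XM_005676274.1 was 7.43, 7.01 and 10.7 FPKM in dark skin replicates 1, 2 and 3. White skin replicates 4, 5 and 6 held 46.7, 29.7 and 22.4 FPKM of it. For XM_005676275.1 the dark skin levels were 14.6, 25.3 and 24.3 FPKM, above the white skin levels of 10.9, 8.09 and 6.90 FPKM. Neither overlapped between the breeds, with log2 differences of -1.92 (standard error 0.29, adjusted p = 0.207 from limma) and 1.28 (standard error 0.26, adjusted p = 0.405 from limma). The share of XM_005676275.1 in their summed FPKM was 66.3%, 78.3% and 69.4% in dark skin. In white skin it was 18.9%, 21.4% and 23.5%. The means were 71.3% ± 6.20 and 21.3% ± 2.29 (SD, n = 3), and the exact permutation p of 0.1 is the smallest that 3 against 3 libraries allow. The summed FPKM of both transcripts overlapped between the breeds, at 29.8 ± 6.80 in dark and 41.6 ± 14.5 in white skin (SD, n = 3). Unlike the isoform share of ALAS2, this share was looked at after its values had been seen.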
